A study of Mus musculus with 2 samples.

Results

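The genes described here encode the glutamate receptors and their auxiliary subunits, 36 of the 51826 genes listed for mouse spinal cord at postnatal day 7. They were selected by a fixed list of gene symbols, drawn up when earlier results of these data were known. They comprise 4 AMPA receptor subunits (Gria1 to Gria4), 7 NMDA receptor subunits (Grin1, Grin2a to Grin2d, Grin3a and Grin3b), 5 kainate receptor subunits (Grik1 to Grik5), 2 delta receptor subunits, 8 metabotropic receptors (Grm genes) and 10 auxiliary subunits of AMPA receptors (5 Cacng, 3 Shisa and 2 Cnih genes). All 36 symbols were found. Of these genes, 35 had counts in both libraries and passed a minimum mean of 1 CPM (counts per 1000000 counts of the library), and Grm6 had 0 counts in both.

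The strain was C57BL/6, and RNA was taken from the whole cord at postnatal day 7 in both groups. In the cKO group Secisbp2l, floxed at exon 3, was deleted with Olig1-Cre, which follows a gene of the oligodendrocyte lineage, and the WT group was wild type. Whether WT animals carried the Cre or the floxed allele is not in the labels. Each group was a single library of an unstated number of animals. No difference below therefore has a replicate check, no p-value was computed, and the 95% intervals cover counting error only.

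AMPA and kainate receptors are cation channels opened by glutamate that carry fast excitatory transmission. NMDA receptors need glutamate and glycine or D-serine together, are blocked by magnesium at rest and admit calcium. Metabotropic receptors act through G proteins, and the auxiliary subunits set the trafficking and gating of AMPA receptors. In the spinal cord these proteins serve sensory and motor synapses, and oligodendrocyte precursors and astrocytes carry some of them as well.

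The estimated counts summed to 55179026 in cKO and 42875143 in WT, and 1 fragment was taken as 2 counts. The members took 0.385% of the counts in cKO and 0.347% in WT. Secisbp2l, the targeted gene, stood at 466 CPM in cKO and 588 CPM in WT (log2 ratio -0.34, interval -0.37 to -0.30); these whole-gene values do not isolate exon 3. Xist, transcribed from the inactive X chromosome of female cells, had 13 counts in cKO and 35182 in WT, and 4 Y-linked genes had between 1081 and 4280 counts in cKO and 0 in WT. Genotype and sex-linked expression therefore cannot be told apart here. The forebrain gene Emx1 and the cerebellar gene Gabra6 had 0 counts in both libraries. Slc6a5, the glycine transporter of spinal inhibitory neurons, stood at 127 TPM in cKO and 101 TPM in WT.

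Levels were compared between genes on the authors' TPM scale, which is per transcript length. Cnih2, a cornichon that escorts AMPA receptors out of the endoplasmic reticulum, had the highest level of the 36, at 262 TPM in cKO and 243 TPM in WT. Cacng7, a type II transmembrane AMPA receptor regulatory protein, was next with 178 TPM in cKO and 176 TPM in WT. In cKO the following 5 were Grin1 (164 TPM), Grm5 (146 TPM), Gria2 (138 TPM), Grik5 (135 TPM) and Gria4 (123 TPM). In WT the same 5 genes followed in another order, with Gria2 (131 TPM) and Grin1 (129 TPM) ahead of Gria4 (120 TPM), Grm5 (120 TPM) and Grik5 (117 TPM). Counting intervals of Gria2 and Grik5 overlapped in cKO. In WT those of Gria2 and Grin1 overlapped, as did those of Gria4 with Grm5 and of Grm5 with Grik5. At the low end stood Grm2 (6.40 TPM in cKO and 3.94 TPM in WT), Grin2c (3.75 and 4.34 TPM) and Grin3b (0.831 and 0.816 TPM).

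**Figure D1:**
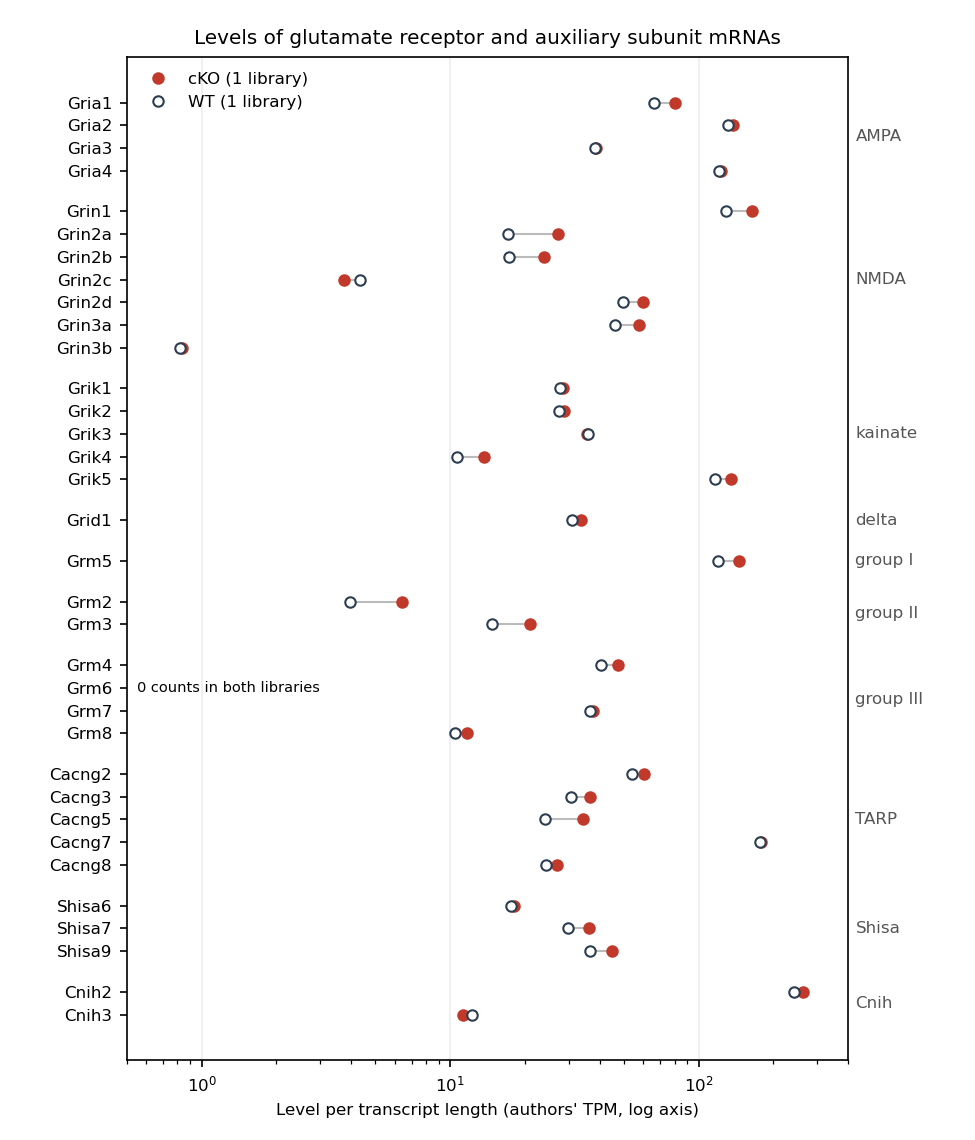
Level of the members described in the cKO library (filled points) and the WT library (open points), as the authors' TPM on a log axis, grouped by receptor family. The highest level is that of Cnih2 (262 TPM in cKO and 243 TPM in WT), and Grm6 has 0 counts in both libraries.

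Ratios between the libraries were taken on TMM-scaled CPM. As a group the members were slightly higher in the cKO library: 27 of 35 had a log2 ratio of cKO over WT above 0, or 77.1%, against 52.3% of all 15917 measured genes. Their median log2 ratio was 0.14, beside 0.01 for all measured genes, whose quartiles were -0.14 and 0.15. The whole counting interval lay above 0 for 19 of 35 members (54.3%, against 21.9% of all measured genes) and below 0 for 0 of 35 (against 18.4%). These shares depend on counts, since abundant genes have narrow intervals. In bulk tissue, more cells of a type and more RNA per cell cannot be told apart.

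Large differences were few. The size rule asked for a difference of 1.5-fold or more whose interval did not include equality. In the higher direction it was met by 1 of 35 members (2.86%), against 2.46% of all measured genes, a share near the background; that member was Grm2. In the lower direction it was met by 0 of 35, against 3.42%. At 2-fold 0 members passed in either direction, against 0.817% of measured genes higher and 1.15% lower.

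**Figure D2:**
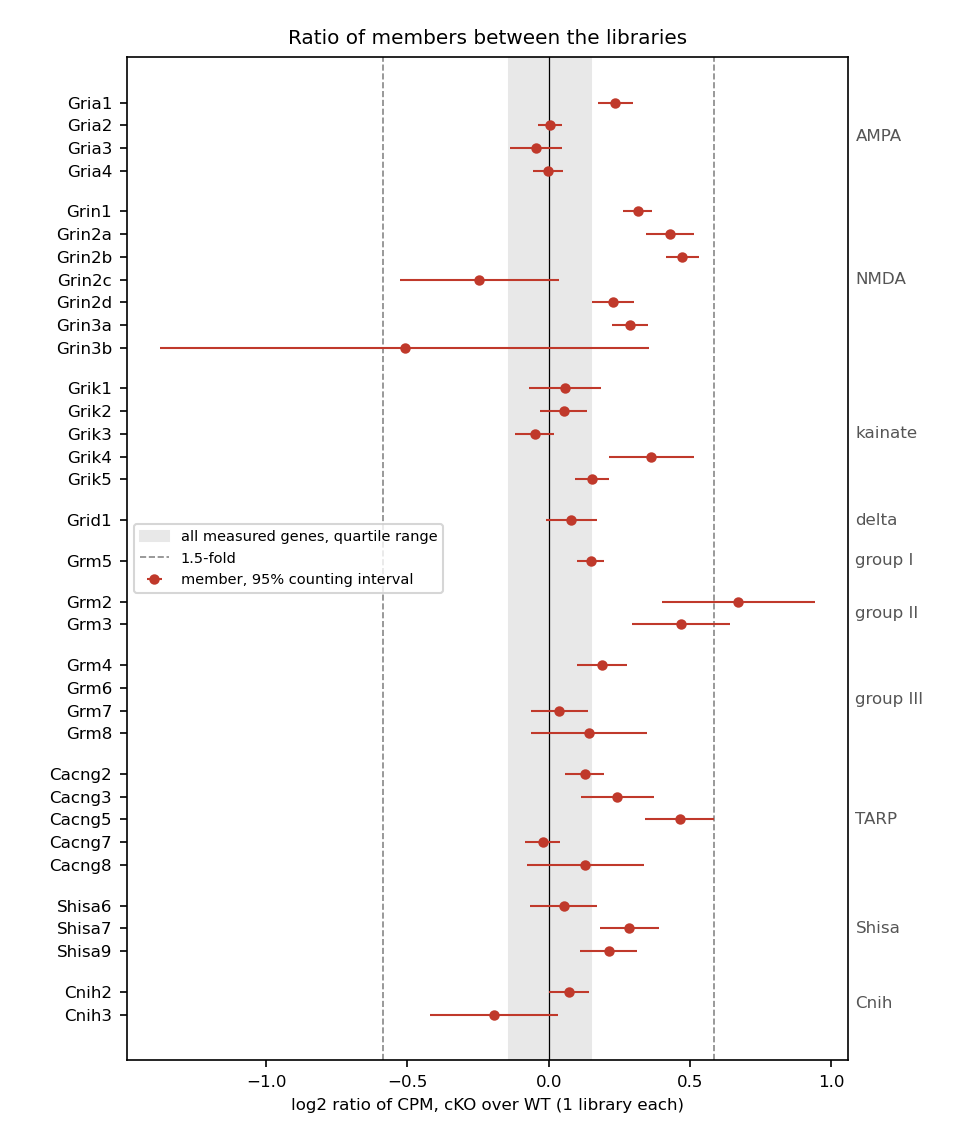
Log2 ratio of CPM, cKO over WT, for the members described that had at least 1 CPM, with 95% counting intervals; the grey band spans the quartiles of all measured genes (-0.14 to 0.15) and dashed lines mark 1.5-fold. Of the 7 NMDA receptor subunits, 5 have intervals wholly above 0 (71.4%, against 21.9% of all measured genes), and Grm2 is the member past the upper dashed line.

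Among the 4 AMPA receptor subunits, Gria1 alone had an interval wholly on one side of 0. Gria1, which encodes GluA1, stood at 187 CPM in cKO and 159 CPM in WT, a log2 ratio of 0.24 (0.17 to 0.30). Gria2, whose edited product makes the channel nearly impermeable to calcium, had 394 CPM in cKO and 393 CPM in WT, a log2 ratio of 0.00 (-0.04 to 0.05). Gria4, a subunit of fast channels, likewise had 236 CPM in each library, with an interval of -0.06 to 0.05. Gria3 was at 78.3 CPM in cKO and 80.8 CPM in WT (-0.05, -0.14 to 0.05), and it is the member of the 36 that lies on the X chromosome. On the TPM scale Gria2 held 36.3% of the summed AMPA subunit level in cKO and 36.8% in WT, Gria4 32.4% and 33.8%, Gria1 21.1% and 18.6%, and Gria3 10.2% and 10.8%. The order of the AMPA subunit mRNAs was thus the same in both libraries, and Gria1 was the subunit with the higher share in cKO.

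NMDA receptor subunits had the highest median of the families with 3 or more members, 0.29 over 7. Intervals lay wholly above 0 for 5 of the 7 (71.4%, against 21.9% of all measured genes), a share that depends on counts. Grin1, the glycine-binding subunit that every NMDA receptor contains, stood at 279 CPM in cKO and 224 CPM in WT, a log2 ratio of 0.32 (0.26 to 0.37). Grin2b, the glutamate-binding subunit that prevails before birth and in early postnatal life, had 238 CPM in cKO and 172 CPM in WT (0.47, 0.41 to 0.53). Grin2a, which increases in much of the nervous system after birth, had 111 CPM in cKO and 82.8 CPM in WT (0.43, 0.34 to 0.51). These are differences of 1.24-fold, 1.39-fold and 1.35-fold, short of the 1.5-fold limit although far outside counting error. Grin3a, a glycine-binding subunit that lowers calcium entry, was at 182 CPM in cKO and 149 CPM in WT (0.29, 0.22 to 0.35). Grin2d, which gives slow channels and is prominent in the developing cord, was at 132 CPM in cKO and 113 CPM in WT (0.23, 0.15 to 0.30). The remaining 2 subunits, which had the fewest counts of the family, had lower CPM in cKO with intervals that included 0. Grin2c, found in cerebellar granule cells and in glia, had 442 counts in cKO and 408 counts in WT, or 8.02 and 9.51 CPM (-0.25, -0.53 to 0.03). Grin3b, known from motor neurons, had 47 counts in cKO and 52 in WT (-0.51, -1.38 to 0.35), and its exons overlap those of Tmem259 on the opposite strand, which had 4895 counts in cKO and 3977 in WT. The direction of Grin3b turned on the authors' TPM, at 0.831 TPM in cKO and 0.816 TPM in WT (log2 ratio 0.02 with a pseudocount of 0.1).

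Per length, Grin1 made up 48.7% of the summed NMDA subunit TPM in cKO and 48.9% in WT. Among the 4 Grin2 genes, Grin2d was the highest per length in both libraries, with 52.3% of their summed TPM in cKO and 56.2% in WT. On CPM, which is not per length, Grin2b was above Grin2d (238 and 132 CPM in cKO, 172 and 113 CPM in WT). The TPM order thus depends on annotated length, 24060 nt for Grin2b-201 and 5244 nt for Grin2d-203, the main transcripts. Grin2a held 23.7% of it in cKO and 19.4% in WT, and Grin2b 20.8% and 19.6%. The TPM ratio of Grin2a over Grin2b was 1.14 in cKO and 0.989 in WT. The TPM of Grin2a depends on how the authors' estimate divided it between transcripts of unequal length, described below. On TPM with a pseudocount of 0.1, Grin2a had a log2 ratio of 0.66, past the 1.5-fold limit.

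Kainate receptor genes differed little except for Grik4. The ratio of Grik5 lay near the upper quartile of all measured genes (0.15), although its interval left out 0. Grik5, the most abundant of the 5 per length, encodes a high-affinity subunit that needs Grik1 to Grik3 products to form channels; it had 199 CPM in cKO and 179 CPM in WT (0.15, 0.09 to 0.21). The other high-affinity subunit gene, Grik4, had 35.1 CPM in cKO and 27.3 CPM in WT (0.36, 0.21 to 0.51). The low-affinity subunit genes Grik1, Grik2 and Grik3 had log2 ratios of 0.06, 0.05 and -0.05, all with intervals that held 0. Grid1, a delta receptor subunit whose product binds cerebellins at synapses, had 84.8 CPM in cKO and 80.2 CPM in WT, a log2 ratio of 0.08 with an interval that reached -0.01.

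Of the metabotropic receptors, both group II genes were among the members with the highest ratios. These receptors lower cyclic AMP; Grm2 is mainly presynaptic and Grm3 is also an astrocyte gene. Grm2 had 689 counts in cKO and 337 counts in WT, or 12.5 and 7.86 CPM, which gives a log2 ratio of 0.67 (0.40 to 0.94), or 1.59-fold. Grm3 had 27.8 CPM in cKO and 20.1 CPM in WT (0.47, 0.30 to 0.64). The call of Grm2 was lost on TPM with a pseudocount of 1, where its ratio was 0.58, just under the limit. Of 8 astrocyte marker genes, 3 lay above 0 and 5 below, and the median of the 8 was -0.06. Their summed level was 3708 TPM in cKO and 3729 TPM in WT, of which Gfap alone held 1733 and 1772 TPM. The part of astrocytes in the ratio of Grm3 was not tested.

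Group I receptors couple to phospholipase C. Grm5, which encodes mGlu5 of this group, had 310 CPM in cKO and 279 CPM in WT (0.15, 0.10 to 0.20), with an interval wholly above 0. Group III receptors sit on presynaptic terminals. Grm4 had 92.7 CPM in cKO and 81.3 CPM in WT (0.19, 0.10 to 0.28), while Grm7 (0.04) and Grm8 (0.14) had intervals that held 0. Grm6, the receptor of retinal ON bipolar cells, had 0 counts in both libraries, where the floor of 6 counts (3 fragments) corresponds to 0.109 CPM in cKO and 0.14 CPM in WT.

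The auxiliary subunits had a median log2 ratio of 0.13 over 10 members. Intervals of 6 of the 10 were wholly above 0 (60%, against 21.9% of all measured genes), which again depends on counts. Cacng5, a type II regulatory protein, had the highest ratio of them, with 55.3 CPM in cKO and 40.1 CPM in WT (0.46, 0.34 to 0.59). Cacng2, which encodes stargazin, had 145 and 133 CPM (0.13, 0.06 to 0.20), and Cacng3 had 43.9 and 37.1 CPM (0.24, 0.11 to 0.37). The most abundant gene of this family per length, Cacng7, had 171 CPM in cKO and 174 CPM in WT (-0.02, -0.08 to 0.04). Cacng8, known from the hippocampus, had 17.0 CPM in cKO and 15.5 CPM in WT (0.13, -0.08 to 0.34), and the intervals of both held 0. Cacng7 held 53.1% of the summed TPM of the 5 Cacng genes in cKO and 57.0% in WT.

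The Shisa proteins slow or speed the recovery of AMPA receptors from desensitization. Shisa7, which also acts on GABA-A receptors, had 68.9 CPM in cKO and 56.6 CPM in WT (0.29, 0.18 to 0.39). Shisa9 had 70.6 CPM in cKO and 61.0 CPM in WT (0.21, 0.11 to 0.31), and Shisa6 48.9 and 47.1 CPM (0.05, -0.07 to 0.17). Of the cornichons, Cnih2 had 141 CPM in cKO and 134 CPM in WT (0.07, 0.00 to 0.14), and Cnih3 had 12.3 and 14.1 CPM (-0.19, -0.42 to 0.03).

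Transcripts were examined where they held at least 10% of the counts of a gene of at least 5 CPM. There were 51 such transcripts from 34 members, and 14 members had more than 1 of them. By the 1.5-fold rule 4 of the 51 were higher in cKO (7.84%, against 12.6% of such transcripts of all genes) and 0 were lower (against 13.1%). A change of at least 5 percentage points in share was seen for 11 of 47 transcripts of genes with several transcripts (23.4%, against 44.4%). The 11 transcripts came from 7 genes: Shisa9, Grin2a, Cacng8, Grik1, Gria1, Gria4 and Grik5. Both shares depend on depth, and the division of counts between transcripts is the authors' estimate. The 4 transcripts were Shisa9-202, Grin2a-201, Grin1-204 and Grm2-201.

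Each AMPA receptor gene has a pair of exons of 115 nt, flip and flop, of which a mature mRNA normally holds either but not both. They encode a stretch of the ligand-binding domain that sets how fast the channel desensitizes. The pairs of the 3 genes described next are printed 5′ to 3′ on the coding strand, as read from GENCODE M21 transcripts (GRCm38), with the bases that differ within a pair in capitals. In Gria1 they lie at chr11:57310608-57310722 (flip) and chr11:57309769-57309883 (flop), in Gria2 at chr3:80690404-80690518 (flip) and chr3:80691320-80691434 (flop), and in Gria4 at chr9:4427030-4427144 (flip) and chr9:4432773-4432887 (flop). Gria1 is on the plus strand, and Gria2 and Gria4 are on the minus strand.
Gria1 flip exon: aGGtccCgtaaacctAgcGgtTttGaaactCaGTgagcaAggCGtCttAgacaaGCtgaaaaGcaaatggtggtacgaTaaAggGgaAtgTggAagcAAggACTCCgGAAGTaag
Gria1 flop exon: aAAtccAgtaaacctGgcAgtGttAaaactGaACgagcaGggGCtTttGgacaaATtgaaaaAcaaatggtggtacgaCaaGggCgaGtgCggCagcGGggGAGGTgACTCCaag
Gria2 flip exon: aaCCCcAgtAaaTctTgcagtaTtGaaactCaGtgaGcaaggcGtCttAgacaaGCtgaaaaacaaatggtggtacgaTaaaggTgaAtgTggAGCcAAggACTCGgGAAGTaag
Gria2 flop exon: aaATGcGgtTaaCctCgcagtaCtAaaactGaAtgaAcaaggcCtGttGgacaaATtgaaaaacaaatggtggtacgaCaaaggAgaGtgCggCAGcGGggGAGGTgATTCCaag
Gria4 flip exon: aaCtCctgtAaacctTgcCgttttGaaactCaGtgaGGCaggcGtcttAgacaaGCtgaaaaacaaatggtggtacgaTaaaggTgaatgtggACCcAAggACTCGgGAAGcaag
Gria4 flop exon: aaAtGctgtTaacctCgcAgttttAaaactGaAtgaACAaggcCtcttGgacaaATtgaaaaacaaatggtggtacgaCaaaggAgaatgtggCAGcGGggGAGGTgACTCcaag
The exons of a pair differ at 36 positions in Gria1, 36 in Gria2 and 31 in Gria4.

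The flip share of the assigned counts was higher in cKO for Gria4 and Gria1. Gria4-202 (flip) has 5352 nt and Gria4-204 (flop) 5207 nt, and Gria1-201 (flip) has 5546 nt and Gria1-202 (flop) 5399 nt. These transcripts therefore also differ outside the flip and flop exons, which are of equal length. The deposited values do not separate reads over flip or flop from reads over the other stretches. For Gria4, transcripts with the flip exon had 6510 counts in cKO and 4432 in WT, and those with the flop exon 4399 in cKO and 4062 in WT. Flip therefore made up 59.7% of the pair in cKO (Wilson interval 58.4% to 61.0%) and 52.2% in WT (50.7% to 53.7%), while the gene's total was 236 CPM in each library. For Gria1 the flip share was 34.9% in cKO (33.6% to 36.2%) and 28.6% in WT (27.1% to 30.1%). These intervals, and those of the shares below, take the assigned counts as observed. They do not cover error in the authors' division of counts between transcripts. Another 2095 counts of Gria4 in cKO and 1638 in WT were in a transcript with neither exon, outside these shares. For Gria2 no flip share is given, since its transcripts did not fall into a clear pair. Transcripts with flop alone had 14467 counts in cKO and 11602 in WT, and those with flip alone 1601 in cKO and 1154 in WT. A transcript annotated with both exons had 2032 counts in cKO and 1660 in WT, and transcripts with neither had 3649 in cKO and 2446 in WT. On TPM, which allows for their unequal lengths, flop alone was 42.1% of Gria2 in cKO and 44.5% in WT. In Gria3, 73.9% of the counts in cKO and 76.9% in WT were assigned to Gria3-206, a transcript annotated as a target of nonsense-mediated decay that holds both exons, so no flip share is given there either.

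**Figure D3:**
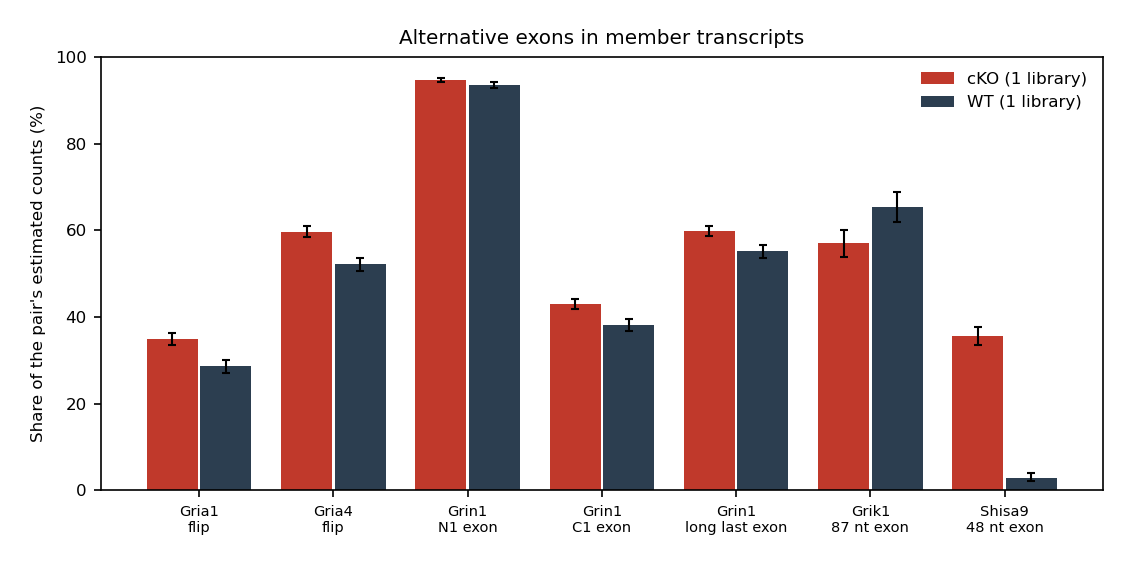
Share of estimated counts held by transcripts with the named exon form, among transcripts with exactly 1 of the 2 forms, in cKO (left bar) and WT (right bar), with 95% Wilson intervals for counting error. The intervals do not cover error in the authors' division of counts between transcripts. The Shisa9 exon of 48 nt stands at 35.6% in cKO and 2.83% in WT, and the other pairs differ by under 10 percentage points.

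Grin1 mRNAs vary at the N1 exon, which lies in the extracellular domain and speeds deactivation, and at the C1 exon and the start of the last exon, which encode the intracellular tail. The N1 and C1 exons lie on the minus strand at chr2:25311343-25311405 and chr2:25294438-25294548, and are shown because the Grin1 transcripts below differ by them or share them.
Grin1 N1 exon: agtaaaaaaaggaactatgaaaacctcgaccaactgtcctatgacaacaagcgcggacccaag
Grin1 C1 exon: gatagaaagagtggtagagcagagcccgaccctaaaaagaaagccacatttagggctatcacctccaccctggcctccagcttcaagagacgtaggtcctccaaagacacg
Both keep the reading frame, with lengths of 63 nt and 111 nt. Nearly all full-length Grin1 transcripts held N1, 94.6% in cKO (94.1% to 95.2%) and 93.5% in WT (92.8% to 94.2%). The C1 exon was held by 42.9% in cKO (41.8% to 44.0%) and 38.2% in WT (36.7% to 39.6%). The long form of the last exon, which starts 356 nt earlier and encodes the C2 tail, made up 59.9% in cKO (58.7% to 61.0%) and 55.1% in WT (53.7% to 56.6%). Grin1-204, which has N1, C1 and C2, had the largest ratio of the main Grin1 transcripts, 63.1 CPM in cKO and 40.8 CPM in WT (0.63, 0.51 to 0.75). Grin1-207, which has N1 and neither C1 nor C2, had 54.1 CPM in each library. Grin1os lies antisense to Grin1 with 380 counts in cKO and 243 in WT, and strand was not given, so a small part of the Grin1 counts is uncertain.

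Shisa9 had the largest shift in share among the 51 transcripts. Its transcripts Shisa9-201 and Shisa9-202 differ by an exon of 48 nt within the coding sequence, on the plus strand at chr16:12252785-12252832, and by the end of their last exon.
Shisa9 48 nt exon: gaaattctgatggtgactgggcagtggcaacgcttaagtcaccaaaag
Shisa9-202, which holds this exon, had 1327 counts in cKO and 70 counts in WT, a log2 ratio of 3.88 (3.39 to 4.42). Shisa9-201, which lacks it, had 2405 counts in cKO and 2400 in WT (-0.36, -0.48 to -0.24). The exon-holding form was thus 35.6% of the pair in cKO (33.4% to 37.8%) and 2.83% in WT (2.04% to 3.92%), while the whole gene differed by a log2 ratio of 0.21. Since the last exons also differ in length, the deposited values do not separate reads over the exon of 48 nt from reads over the 3′ end.

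Grik1, Grin2a, Cacng8 and Grik5 showed smaller shifts. In Grik1 an in-frame exon of 87 nt near the end of the coding sequence, at chr16:87896809-87896895 on the minus strand, separates the main forms.
Grik1 87 nt exon: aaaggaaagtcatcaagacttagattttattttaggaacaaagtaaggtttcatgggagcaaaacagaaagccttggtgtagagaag
The form with this exon was 57.0% of the pair in cKO (53.8% to 60.0%) and 65.4% in WT (61.8% to 68.8%). Whole lengths are 3655 nt with the exon and 3554 nt without it, so these forms also differ outside it. Grin2a-201 and Grin2a-206 have coding sequences of equal length, 4392 nt, and differ in their untranslated ends, with whole lengths of 4395 nt and 14634 nt. Grin2a-201 had 1254 counts in cKO and 435 in WT (1.17, 0.94 to 1.39), and Grin2a-206 had 4714 and 3040 counts (0.27, 0.18 to 0.36). Cacng8-201 and Cacng8-202 also have coding sequences of equal length. Cacng8-201 had 686 counts in cKO and 427 in WT, or 73.3% of the gene in cKO and 64.1% in WT, and Cacng8-202 had 237 counts in cKO and 216 in WT. Grik5-202, annotated as a target of nonsense-mediated decay, had 6133 counts in cKO and 4718 in WT, or 55.9% of the gene in cKO and 61.5% in WT.

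The members were set beside other genes of the same synapses. Of 31 postsynaptic scaffold and kinase genes, 26 lay above 0 (83.9%, against 52.3% of all measured genes), with a median of 0.15. By the size rule 2 were higher (6.45%, against 2.46%). These were Dlg2, which encodes the NMDA receptor anchor PSD-93, with 283 CPM in cKO and 153 CPM in WT (0.88, 0.82 to 0.94), and Magi2, another membrane scaffold, with 82.1 CPM in cKO and 51.7 CPM in WT (0.67). The call of Magi2 was lost on TPM, at 39.4 TPM in cKO and 36.9 TPM in WT (1.07-fold), whereas Dlg2 kept it (1.69-fold). Homer1, a scaffold that links group I receptors to calcium stores, passed 1.5-fold on TPM only, at 34.9 TPM in cKO and 20.0 TPM in WT. Its log2 ratio on CPM, 0.583 (0.45 to 0.71), lay just under the limit of 0.585. The most abundant of the list per length were Nsf, the ATPase that binds GluA2, at 364 TPM in cKO and 315 TPM in WT, Dlg4, which encodes PSD-95, at 252 and 230 TPM, and the kinase gene Camk2b at 242 and 206 TPM. Of 29 other auxiliary and clustering proteins, 24 lay above 0 (82.8%, against 52.3% of all measured genes), with a median of 0.10. By the rule 1 was lower (3.45%, against 3.42%). It was Prrt2, a presynaptic protein that also binds AMPA receptors (76.1 CPM in cKO and 115 CPM in WT, -0.60). On TPM that call was lost as well, at 71.2 TPM in cKO and 104 TPM in WT (1.46-fold). The most abundant of these 29 were Olfm1 (323 TPM in cKO and 315 TPM in WT), Olfm2 (161 and 154 TPM) and the pentraxin receptor gene Nptxr (158 and 133 TPM). Metabotropic signalling genes had a median of 0.09 over 19 measured, with 0 past the rule in either direction on CPM and Itpr1, a calcium release channel gene, past 1.5-fold on TPM (12.3 TPM in cKO and 7.70 TPM in WT). Ncdn, which encodes neurochondrin, a binding partner of mGlu5, led these at 424 TPM in cKO and 359 TPM in WT, ahead of the G protein genes Gnai2 (314 and 308 TPM) and Gnao1 (270 and 261 TPM).

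Genes of glutamate release, uptake and recycling had a median of 0.08 over 17 measured. By the rule 1 of the 17 was higher (5.88%, against 2.46% of all measured genes). It was Slc17a7, the vesicular glutamate transporter VGLUT1, at 3.77 CPM in cKO and 2.45 CPM in WT (0.62, 0.13 to 1.13). Slc17a6, the main vesicular transporter of the cord, was at 0.11, and Glul, the astrocyte enzyme that turns glutamate into glutamine, at 0.07. Genes of NMDA receptor co-agonist supply had a median of 0.02 over 7, with 0 past the rule. The 3 RNA editing enzyme genes, of which Adarb1 encodes the enzyme that edits Gria2 mRNA, had ratios of 0.13 (Adar), 0.06 (Adarb1) and 0.31 (Adarb2). The receptors of inhibitory transmission were near the glutamate receptors: 19 measured GABA and glycine receptor genes had a median of 0.14, beside 0.14 for the members. Of the 19, Gabra5 (0.61) and Glra1 (0.68) were higher by the rule (10.5%, against 2.46% of all measured genes).

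Cell type markers moved beside these values as follows. Of all measured genes, 52.3% lay above 0, 2.46% were higher by the rule and 3.42% were lower. General neuron genes had a median of 0.16, with 11 of 12 above 0 and a summed level of 7944 TPM in cKO and 7022 TPM in WT. Inhibitory neuron genes had 0.21 (7 of 7 above 0), excitatory neuron genes 0.16 (6 of 8) and motor neuron genes 0.03 (5 of 8). The general, inhibitory and excitatory lists thus had medians near or above that of the members, and the motor neuron list one below it; their part in the members' ratios was not tested. In the opposite direction, 12 of 12 mature oligodendrocyte genes were lower by the rule with a median of -1.04 and a summed level of 8137 TPM in cKO and 15775 TPM in WT. Newly formed oligodendrocyte genes had a median of -0.77, with 6 of 6 lower by the rule. Genes of oligodendrocyte precursors, which are known to carry AMPA and NMDA receptors, had a median of -0.15, 9 of 10 below 0 and 1 (Sox10) lower by the rule. On TPM the Sox10 call was lost, at 126 TPM in cKO and 186 TPM in WT, and 11 of the 12 mature oligodendrocyte genes kept theirs. Of the markers of other cells, microglia had a median of -0.07, endothelium and pericytes 0.08, meninges and fibroblasts -0.19 and Schwann cells 0.12. Sensory ganglion neurons (-0.21 over 2 of 7 measured), skeletal muscle (0.22 over 2 of 5), cerebellum (0.15 over 3 of 5) and forebrain (0.37 over 2 of 4) had summed levels of at most 53.8 TPM in either library.

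**Figure D4:**
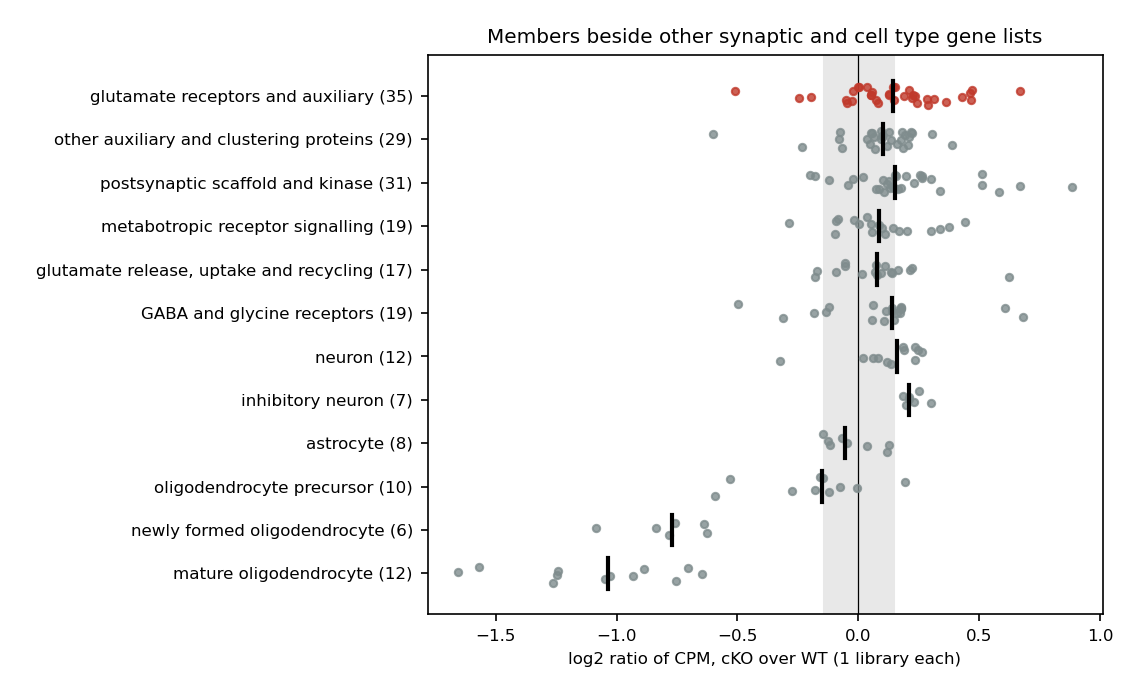
Log2 ratio of CPM, cKO over WT, for each measured gene of 12 lists (points; number measured in parentheses), with the list's median as a black bar; the grey band spans the quartiles of all measured genes. The members (median 0.14) overlap the general and inhibitory neuron lists (0.16 and 0.21) and lie apart from mature oligodendrocyte genes (-1.04). The excitatory (0.16) and motor neuron (0.03) lists are not plotted.

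The promoters were described for the members that RefSeq windows on GRCm38.p6 cover, 23 genes with 27 windows of 250 bases before to 50 bases after a start. Median GC content was 63.3%, beside 52.7% for all 32851 windows. The GC box GGGCGG, read on both strands, was present in 15 of 27 windows (55.6%), beside 35.7% of all windows. The TATA box TATAAA was present in 1 of 27 (3.70%), beside 13.6% of all windows.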

How the data were processed

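The authors deposited estimated counts, TPM and FPKM for 51826 genes and 128622 transcripts, 1 column per library, per the file headers. CASAVA, Bowtie2 2.3.2 and the build GRCm38.p6 are listed, per the submitters' processing notes, without their roles. What tool counted the reads, on which annotation and with what strand setting is not given in the sources used here. Deposited estimated counts are whole numbers, and for 98.9% of transcripts under 50 counts in each library they were the next whole number (within 0.1) above a constant times FPKM times length. For single-transcript genes over 1000 nt under 12 counts this value lay within 0.2 of an even number in 43.4% (cKO) and 44.8% (WT), and of an odd number in 19.5% and 17.9%, so 1 fragment was taken as 2 counts. Rounding up adds counts to genes with many transcripts.

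Library sizes were scaled by TMM (edgeR 4.0.16, R 4.3.3). Log2 ratios carry no pseudocount and have exact Clopper-Pearson 95% intervals on fragments; shares have Wilson intervals (scipy 1.17.1, pandas 2.3.3, numpy 2.4.6, Python 3.11.15, matplotlib 3.10.9). DESeq2 1.42.0 size factors served as an alternative. PCR copies are not independent molecules, so intervals and floors cover counting error only. The interval calculation was tested on simulated data. The members, 7 synaptic lists and 16 cell type lists were chosen with earlier results of these data known. Named genes were all members, the genes of each synaptic list past the size rule or among its 3 of highest TPM, and up to 3 markers of highest TPM per list; transcripts needed 10% of a gene's counts. Markers at 0 counts were also named, and Homer1, Itpr1 and Drp2 were named after their values were seen. Dlg2 is listed under 2 identifiers, and the more abundant was used. Exons come from GENCODE M21, on GRCm38 like the files. Exons of an antisense gene with counts overlap 10 members. A few genes that were counted within groups are not reported by name here, in the text or the figures.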

Additional observations from a re-analysis of the deposited data

How the results depend on the processing

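The number of members higher by the size rule was 1 and became 2 on TPM or FPKM with a pseudocount of 0.1, where Grin2a joined Grm2. It became 0 with a 2-fold rule. On TPM with a pseudocount of 1 it was again 1, but the gene was Grin2a (0.63). The number lower by the rule was 0 under all alternatives run, which were DESeq2 size factors, upper quartile scaling, library totals, no filter, a filter of 5 CPM, TPM, FPKM, the 2-fold rule, intervals on counts as deposited, sums with same-strand genes that share exons, and autosomes only. The members' median log2 ratio stayed between 0.12 and 0.17 under these. The AMPA subunit median lay at 0.00 and changed sign with scaling, from -0.00037 with library totals to 0.02 with upper quartile scaling. Grin2a, Grm5, Gria2 (TPM only) and Grin2b (FPKM only) left their counting intervals on the length-scaled units. On TPM the sign turned for Grin3b (0.02), Gria3 (0.01), Gria4 (0.03) and Cacng7 (0.02), which all have CPM intervals that hold 0. In an alternative chosen after seeing the data, the list genes were set on TPM. The number past the rule became 0 for the other auxiliary proteins (Prrt2), precursors (Sox10) and Schwann cells (Drp2), each 1 on CPM, and 1 for metabotropic signalling (Itpr1), 0 on CPM. The scaffold list kept 2, with Homer1 in place of Magi2. Transcript shares on TPM left their counting intervals in 68 of 102 cases. No paired analysis was possible because each group has 1 library. With 1 library per group no replicate could be left out.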
